A study of Mus musculus with 6 samples.

Results

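The mucins examined here were 7 genes, Muc1, Muc2, Muc3, Muc4, Muc6, Muc13 and Muc20, read through every probe set that the platform annotation pairs with 1 of them and with no other gene. This gave 10 probe sets of the 45101 on the array, for 6 of the 7 genes; the annotation used here pairs no probe set with Muc6, which is not analysed here. RNA came from small intestinal epithelium of 14-day-old C57BL/6 mice, detached with EDTA, and was hybridized to Affymetrix arrays, 1 per sample. The N-cadherin replacement group held 3 samples of genotype Ecadflox/Ncad;Vil-Cre, a design in which Vil-Cre, a recombinase driven in gut epithelium, is meant to delete floxed E-cadherin in cells that carry an N-cadherin allele. The control group held 3 samples from littermates that kept E-cadherin, and their alleles are not given further. Control 2 and control 3 had log2 ratios with an SD of 0.115 over 5109 bright probe sets, no wider than what 18 spiked hybridization controls gave between arrays (0.0812 to 0.134). For that pair itself these controls gave 0.0824, so the pair differed by more than its own controls and by less than the other pairs within a group (0.347 to 0.564). They were averaged and counted as 1 sample. This left n = 3 replacement and n = 2 control replicates. Whether each came from a separate animal is not stated, so p-values rest only on the spread between these samples. In these p-values limma draws the spread of each gene towards that of all genes. Cdh1, the E-cadherin transcript, read 1073, 1175 and 1357 in the replacement arrays, against 2757, 2335 and 2204 in the control arrays (log2 difference -1.06, limma adjusted p = 0.0250), a call that 7 of 19 alternatives ended. Its signal was thus lower but still bright in the samples labelled as replacement. Neither Cdh2 probe set reached 16, the intensity floor used here, on any array, with at most 13.5 in the replacement arrays and 6.7 in the control arrays, so these values do not show expression of N-cadherin in its place. Whether the probe sets cover the deleted or inserted parts is not known here, and the group name is that of the labels.

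Mucins are large glycoproteins whose serine- and threonine-rich stretches carry dense O-linked sugar chains. Muc2 and Muc6 are secreted and form gels: Muc2 is the main component of intestinal mucus and is made by goblet cells, and Muc6 is the mucin of gastric glands and of Brunner glands in the duodenum. Muc1, Muc3, Muc4, Muc13 and Muc20 are anchored in the membrane and cover the apical surface; Muc3 and Muc13 are the membrane mucins best known from enterocytes, the absorptive cells of the small intestine. E-cadherin (Cdh1) holds epithelial cells together at adherens junctions, and N-cadherin (Cdh2) does so in neural and mesenchymal cells.

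The sequences shown are the 250 bases before the annotated start of Muc4, the mucin that rose, of Muc3, whose groups did not overlap but which did not pass the test, and of Muc2, the secreted mucin whose groups overlapped. They were taken from RefSeq, build GRCm38.p6, and are written 5′ to 3′ along the strand of the gene, at chr16:32735636-32735885 (plus strand), chr5:137166047-137166296 (minus strand) and chr7:141690090-141690339 (plus strand). Capitals mark matches on either strand to 8 motifs. These were TGANTCA for AP-1 factors, GATAA for GATA factors, TTTATG for CDX factors, TGTTTNC for forkhead factors, TTCNNNGAA for STAT factors, CACGTG as an E-box, GGGCGG as a GC box and TATAA as a TATA box.
Muc4: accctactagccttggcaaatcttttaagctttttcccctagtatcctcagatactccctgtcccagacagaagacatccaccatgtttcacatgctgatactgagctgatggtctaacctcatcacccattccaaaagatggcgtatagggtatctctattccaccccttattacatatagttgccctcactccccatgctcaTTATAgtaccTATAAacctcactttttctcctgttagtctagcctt
Muc3: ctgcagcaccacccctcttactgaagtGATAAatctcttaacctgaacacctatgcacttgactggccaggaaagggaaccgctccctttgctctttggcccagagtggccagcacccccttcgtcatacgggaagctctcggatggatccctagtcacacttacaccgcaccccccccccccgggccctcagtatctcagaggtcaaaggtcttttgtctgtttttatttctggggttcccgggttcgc
Muc2: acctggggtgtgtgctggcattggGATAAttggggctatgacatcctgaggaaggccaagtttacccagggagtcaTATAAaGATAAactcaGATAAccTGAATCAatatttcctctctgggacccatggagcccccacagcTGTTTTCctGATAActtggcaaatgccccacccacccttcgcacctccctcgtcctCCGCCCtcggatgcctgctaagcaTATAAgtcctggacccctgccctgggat
The Muc4 window held 2 matches to TATAA, the nearer beginning 36 bases before the start, and none to the other 7 motifs. The Muc3 window held 1 match, to GATAA. The Muc2 window held 4 matches to GATAA, a number reached in 0.12% of 32851 windows of that length, besides 2 to the TATA box and 1 each to the AP-1, forkhead and GC box motifs, and no match shared a letter with another. Among all windows 22.6% held the GATA motif, 22.8% the TATA box, 32.7% the GC box, 17.8% the forkhead, 10.8% the CDX, 7.0% the STAT and 6.7% the AP-1 motif, and 6.0% the E-box. These matches describe the letters and are not tested sites.

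Muc4 was the mucin that rose in the N-cadherin replacement epithelium, Muc3 was higher without passing the test, and Muc2, Muc13 and Muc20 did not pass. Intensities are linear units as deposited, and values under 16 were set to 16 before log2 was taken. To be tested, a probe set had to reach that floor on 3 or more of the 6 arrays, as 7 of the 10 mucin probe sets did, covering 5 of the 7 genes. Of these 5 genes 1 passed at a limma adjusted p under 0.05 (Benjamini-Hochberg over 12994 genes), and it was higher. Across all 12994 genes 9.12% passed, 4.46% higher and 4.66% lower in the replacement samples. In a bulk sample fewer cells of a type and less RNA per cell cannot be told apart.

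**Figure D1:**
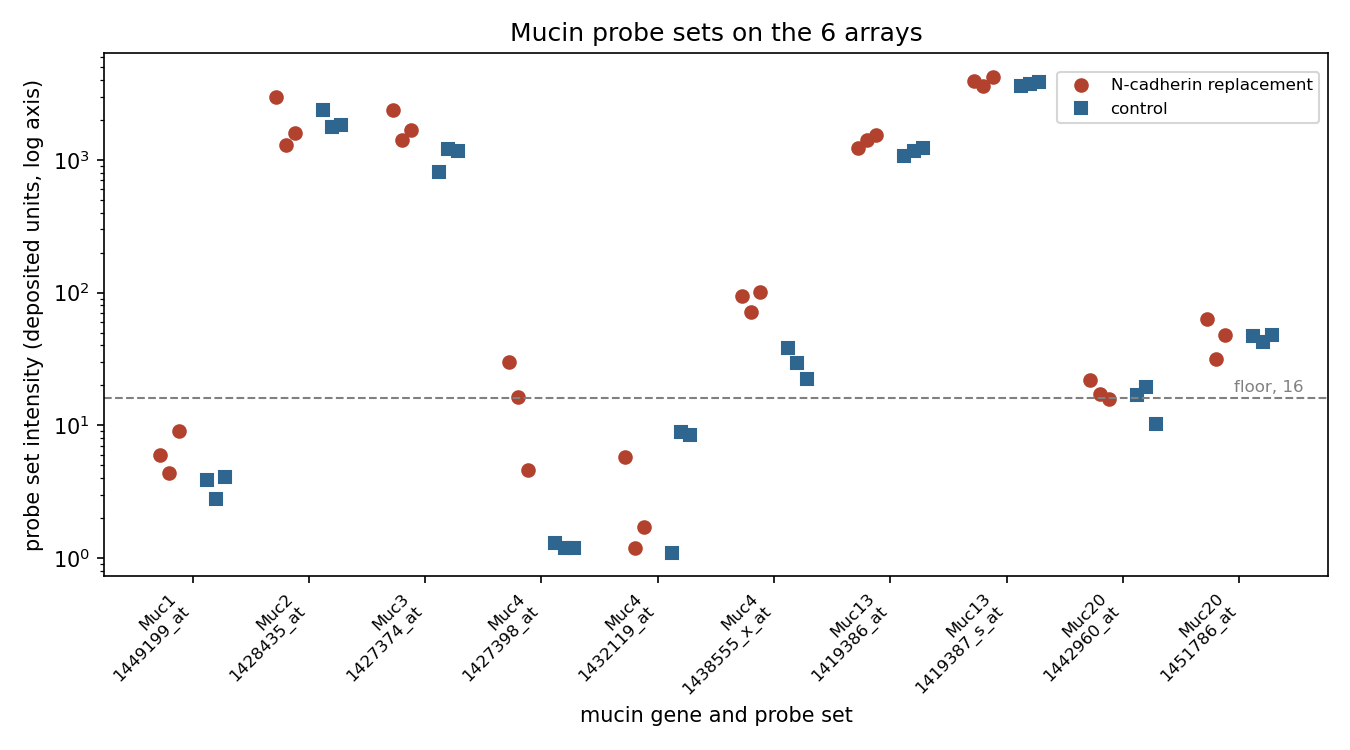
Intensity of the 10 mucin probe sets on each array (log axis, deposited units), with replacement arrays as red circles left of control arrays as blue squares, and the floor of 16 dashed. The replacement arrays of Muc4 (its brightest probe set, 71.5 to 101.5) and of Muc3 (1419 to 2368) lie above all of their control arrays, and those of Muc2, Muc20 and Muc13 overlap with them on the probe set that stands for the gene.

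Muc4, a membrane mucin whose rat form is known to associate with the receptor ErbB2, had intensities of 95.0, 71.5 and 101.5 in the replacement arrays, against 38.5, 29.7 and 22.4 in the control arrays. The lowest replacement array thus stood well above the highest control array. The geometric mean was 88.3 in the replacement replicates and 31.5 in the control replicates, a log2 difference of 1.49 (SE 0.276, 95% interval 0.87 to 2.11, n = 3 and 2), which is 2.80-fold higher (limma adjusted p = 0.0109). The signal was low on the array as a whole, and the x suffix in the name of this probe set marks possible cross-hybridization. A second Muc4 probe set read 30.2, 16.3 and 4.6 in the replacement arrays and 1.3, 1.2 and 1.2 in the control arrays, so that 2 of its 6 arrays reached the floor and it was not tested. The remaining one never reached the floor and peaked at 8.9. The Muc4 call ended when control 1 was dropped (log2 difference 1.78, adjusted p = 0.111), when replacement 3 was dropped (1.39, 0.0714) and when the control 2 and 3 average was dropped (1.20, 0.200). It also ended when dim probe sets were kept (1.49, adjusted p = 0.148) or the floor was 32 (1.33, adjusted p = 0.0780), while the difference was above 0 in all 19 alternatives, at adjusted p from 8.21e-04 to 0.200.

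Over the 6 arrays, the 3 genes of 12993 whose centred log2 profile lay nearest to that of Muc4 were Duoxa2, Dmbt1 and Ckap4, at root mean square distances of 0.113, 0.118 and 0.126. Duoxa2, the maturation factor of the dual oxidase DUOX2, read 54.3, 45.9 and 66.4 in the replacement arrays, against 22.7, 17.3 and 15.2 in the control arrays. Ckap4, a membrane protein of the endoplasmic reticulum, read 134.0, 100.9 and 113.0 in the replacement arrays, against 46.4, 38.3 and 26.9 in the control arrays. Dmbt1, a secreted glycoprotein of mucosal surfaces, read 3784, 3002 and 3923 in the replacement arrays, against 1584, 1182 and 1111 in the control arrays. In these genes, as in Muc4, all replacement arrays lay above all control arrays and control 1 was the highest control array. They were chosen by this distance, which is a description without a test.

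Muc20, a membrane mucin known in human cells to bind the receptor MET, is the neighbour of Muc4: in the gene table the genes overlap and lie on opposite strands. Its brighter probe set read 62.8, 31.5 and 48.1 in the replacement arrays, against 47.2, 42.4 and 47.6 in the control arrays. The control arrays lay inside the range of the replacement arrays. The log2 difference was -0.01 (SE 0.306, adjusted p = 0.988), with a 95% interval for replacement over control of 0.616 to 1.60. Its dimmer probe set read 22.1, 17.3 and 15.8 in the replacement arrays, against 16.9, 19.3 and 10.3 in the control arrays, a difference of 0.09 (SE 0.246). An increase of the size fitted for Muc4 lay outside this interval of Muc20, but the difference between the genes was not tested.

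Muc3, a membrane mucin of the enterocyte brush border, had intensities of 2368, 1419 and 1681 in the replacement arrays, against 809.5, 1216 and 1163 in the control arrays. All replacement arrays lay above all control arrays, as they did in one direction or the other for 36.6% of the genes tested. The geometric mean was 1781 in the replacement replicates and 981.2 in the control replicates, a log2 difference of 0.86 (SE 0.296, n = 3 and 2; 1.82-fold, 95% interval 1.15 to 2.88). This did not pass over all genes (limma adjusted p = 0.108), and the adjusted p ran from 0.0536 to 0.513 over 19 alternatives. The size rested partly on single arrays: it was 0.58 without control 1, the lowest array, and 0.65 without replacement 1, the highest.

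Muc13, a membrane mucin of enterocytes and goblet cells, was measured by 2 bright probe sets. The brighter read 3950, 3593 and 4232 in the replacement arrays, against 3605, 3704 and 3885 in the control arrays. These ranges overlapped, and the log2 difference was 0.08 (SE 0.227, adjusted p = 0.869), with a 95% interval for replacement over control of 0.743 to 1.51. The other probe set read 1224, 1416 and 1540 in the replacement arrays, against 1074, 1174 and 1220 in the control arrays. Here all replacement arrays lay above all control arrays, by as little as 1224 against 1220, and the difference of 0.29 (SE 0.234) did not pass (adjusted p = 0.570 over 26630 probe sets). In that fit of single probe sets 1 of the 7 mucin probe sets passed, that of Muc4 (adjusted p = 0.0354), against 4.04% of all probe sets. Muc1, a membrane mucin of many glandular epithelia, stayed under the floor on every array, with 9.0 as the highest value, and no fold is given.

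**Figure D2:**
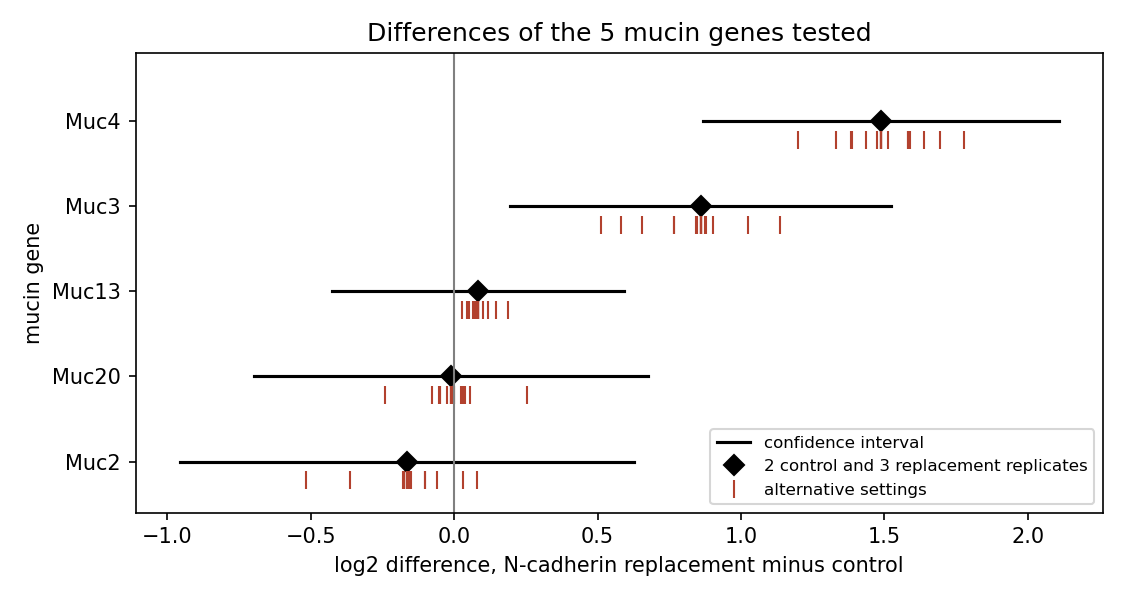
Log2 difference (N-cadherin replacement minus control) of the 5 mucin genes tested, with its 95% interval as a black line and the values under the alternative settings as red ticks under it. The interval of Muc4 (0.87 to 2.11) and that of Muc3 lie above 0, and those of Muc13, Muc20 and Muc2 include it.

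Muc2, the gel-forming mucin of goblet cells, had intensities of 2987, 1306 and 1587 in the replacement arrays, against 2361, 1775 and 1820 in the control arrays. The replacement arrays held the highest and the lowest values of all 6, so the groups overlapped. The log2 difference was -0.17 (SE 0.353, adjusted p = 0.830), and the 95% interval for replacement over control, 0.515 to 1.54, spans both directions. The difference was -0.52 without replacement 1 and 0.08 without replacement 2. The SD of log2 Muc2 was 0.624 in the replacement replicates and 0.279 in the control replicates, and that of Muc13 was 0.119 in the replacement replicates and 0.0519 in the control replicates.

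Goblet cell genes varied between the arrays, and none passed the test. Of 8 goblet cell markers tested 0 passed in limma (0 also at an unadjusted p under 0.05), with a median difference of 0.03 against -0.02 over all genes; the ninth, Retnlb, was under the floor on all arrays. Their summed intensity was 18342, 9936 and 14204 in the replacement arrays, against 16363, 12144 and 12314 in the control arrays. Replacement 1 was thus the highest and replacement 2 the lowest, as for Muc2. The goblet genes given next were chosen after their values were seen. Tff3, a trefoil peptide secreted with Muc2, read 3928, 1877 and 3526 in the replacement arrays and 3431, 3116 and 3382 in the control arrays. Zg16, a lectin of the mucus layer, read 4138, 1706 and 2157 in the replacement arrays, against 4166, 2049 and 1965 in the control arrays. Fcgbp, a mucus protein cross-linked with Muc2, read 3340, 1856 and 2238 in the replacement arrays, against 2966, 2573 and 2543 in the control arrays. Clca1, a mucus metalloprotease, differed from these: it read 1894, 1918 and 2138 in the replacement arrays, against 1897, 1521 and 1503 in the control arrays, with replacement 2 not the lowest.

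**Figure D3:**
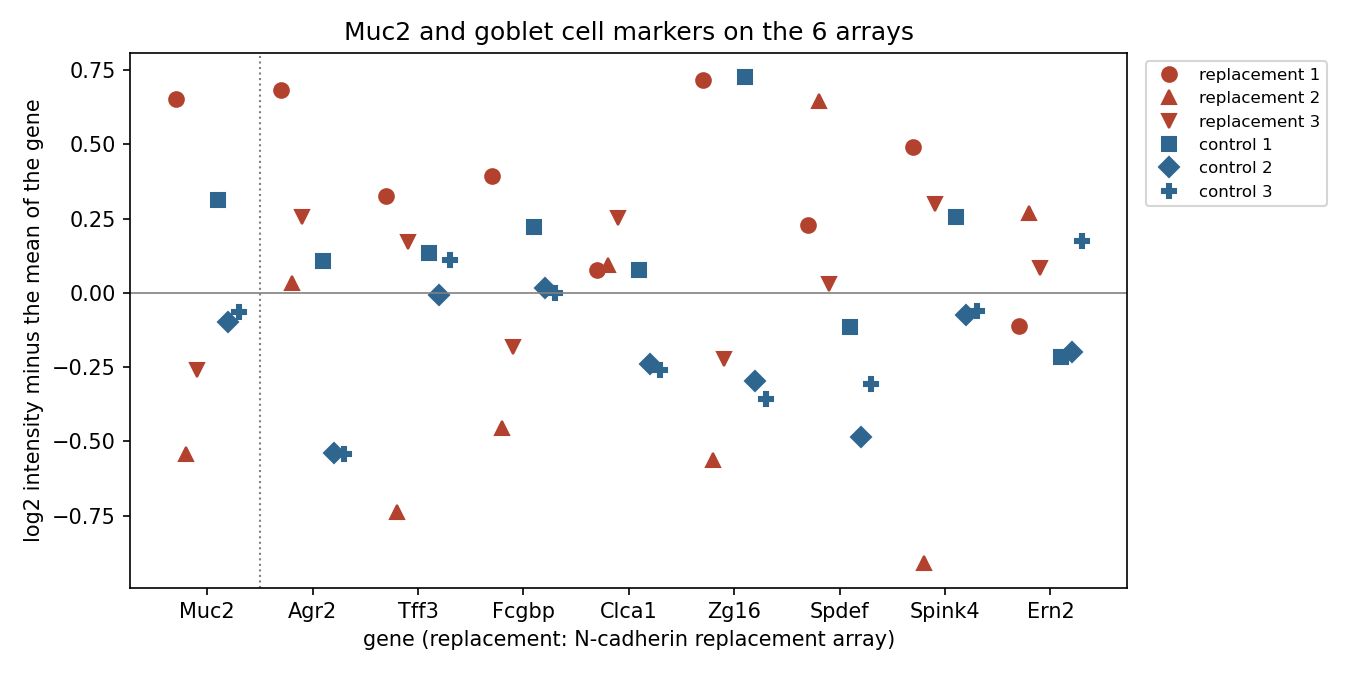
Log2 intensity minus the mean of the gene for Muc2, left of the dotted line, and 8 goblet cell markers on each array, with replacement arrays in red left of control arrays in blue. Replacement 1 is high and replacement 2 low for Muc2, Tff3, Fcgbp, Zg16 and Spink4, while Spdef and Ern2 are highest in replacement 2.

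Sex-linked transcripts put replacement 2, replacement 3 and control 1 among females and replacement 1, control 2 and control 3 among males, so each sex held 1 control replicate. Among females the log2 difference of Muc4 was 1.15 and among males 1.88. Muc3 gave 0.93 and 0.99, and Muc13 gave 0.11 and 0.06. Muc20 gave -0.28 within females and 0.48 within males, and Muc2 gave -0.71 and 0.73. With 1 control replicate each these values have no test.

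Genes that build the sugar chains of mucins moved in both directions. Of 34 listed genes of mucin O-glycosylation 32 were tested, and 8 were called higher and 3 lower (34.4%, against 9.12% of all genes). Gcnt1 and Fut2 are among the 8, though they reached the floor in the replacement arrays alone, so their calls do not test a rise. The share, the median and the counts given next include both genes. The list was chosen with earlier results of these data known, so its share describes the list and does not test it. The median difference was 0.58, against -0.02 over all genes, and 24 of the 32 differences were above 0. The groups did not overlap for 20 of the 32, where 36.6% of all genes had no overlap. The summed intensity of the list was 13408 to 15193 in the replacement arrays and 12223 to 12473 in the control arrays.

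The first sugar of a mucin chain, N-acetylgalactosamine, is attached by the Galnt enzymes, and none of the 10 tested passed. Galnt12 was nearest, with 338.2, 465.8 and 373.4 in the replacement arrays, against 244.9, 155.5 and 141.8 in the control arrays (log2 difference 1.03, SE 0.286, adjusted p = 0.0548). Those of Galnt4 and Galnt2 were 0.86 and 0.79, and that of Galnt6 was -0.49. The genes of this paragraph other than Galnt12, and those named next other than Gcnt1, St3gal1, Fut2 and St6galnac6, were chosen after their values were seen.

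Of the enzymes that build and branch the core, C1galt1 and Gcnt3 rose, and Gcnt1 was higher without a test of its rise. C1galt1, the synthase of the core 1 chain, rose by 0.95 (SE 0.244, adjusted p = 0.0424), a call that 9 of 19 alternatives ended, and its chaperone C1galt1c1 had 0.06. Gcnt1, which branches core 1 into core 2, read 97.5, 146.9 and 206.3 in the replacement arrays, against 11.5, 6.1 and 7.0 in the control arrays. All control arrays were under the floor, so this probe set passed the filter through the replacement arrays alone. On it Gcnt1 was higher by at least 8.97-fold (log2 3.16 from the floor), and its second probe set gave 1.04. The control values were all set to 16, so the SE of 0.317 and limma adjusted p = 5.88e-04 hold no control spread and do not test the rise. Gcnt3, the mucin-type enzyme that makes core 2 and core 4 branches, read 435.4, 578.0 and 566.5 in the replacement arrays, against 163.4, 132.4 and 116.5 in the control arrays, 3.67-fold higher (1.87, SE 0.255, adjusted p = 0.00228), and its 3 probe sets gave 1.73 to 2.56. B3gnt6, the core 3 synthase, read 24.1, 21.0 and 23.7 in the replacement arrays, against 21.7, 17.9 and 9.5 in the control arrays, and did not pass (adjusted p = 0.569).

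Of the genes that extend chains, B3gnt3 and B4galt1 rose and B3gnt7 did not pass. B3gnt3, which extends core 1 chains, rose by 1.65 (SE 0.228, adjusted p = 0.00248), with 263.1, 313.1 and 283.9 in the replacement arrays and 93.5, 83.3 and 95.2 in the control arrays. B4galt1, a galactosyltransferase that acts on many kinds of glycan, rose by 1.18 (SE 0.276, adjusted p = 0.0285), a call that 8 of 19 alternatives ended. For both, every replacement array lay above every control array. B3gnt7 read 76.0, 49.2 and 22.8 in the replacement arrays, against 22, 22.4 and 34.0 in the control arrays, and the groups overlapped (0.84, SE 0.436, adjusted p = 0.279).

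Enzymes that cap chains moved both ways. St3gal1, which caps core 1 with sialic acid, read 327.4, 400.9 and 323.7 in the replacement arrays, against 1574, 1787 and 1848 in the control arrays, and was 4.85-fold lower (log2 difference -2.28, SE 0.237, adjusted p = 6.76e-04). St3gal3, a sialyltransferase better known from N-linked chains, had a difference of -1.49 (SE 0.238, adjusted p = 0.00535). Gal3st2, which adds sulfate to galactose, read 262.3, 288.3 and 267.9 in the replacement arrays, against 992.4, 655.3 and 634.5 in the control arrays, 2.93-fold lower (adjusted p = 0.00662). In these 3 genes the lowest control array stood above the highest replacement array. Fut2, which adds the terminal fucose of intestinal mucins, read 54.4, 51.0 and 55.9 in the replacement arrays, against 7.0, 14.2 and 14.0 in the control arrays. On this probe set it was higher by at least 3.36-fold (log2 1.75 from the floor), and its second probe set gave 0.95. The first probe set passed the filter through the replacement arrays alone. Its SE of 0.223 and limma adjusted p = 0.00170 hold no control spread and do not test the rise. Chst4, which adds sulfate to N-acetylglucosamine, rose 5.10-fold (2.35, SE 0.373, adjusted p = 0.00515). St6galnac6, a sialyltransferase known mainly from glycolipids, was higher by at least 6.43-fold (2.68, SE 0.344, adjusted p = 0.00171), with 133.3, 186.1 and 220.4 in the replacement arrays and 39.0, 23.2 and 15.0 in the control arrays, the last under the floor. Without control 1, and likewise without control 2 and control 3, none of the 11 calls of this list held, and those fits with 1 control replicate called 11 and 4 of all 12994 genes.

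**Figure D4:**
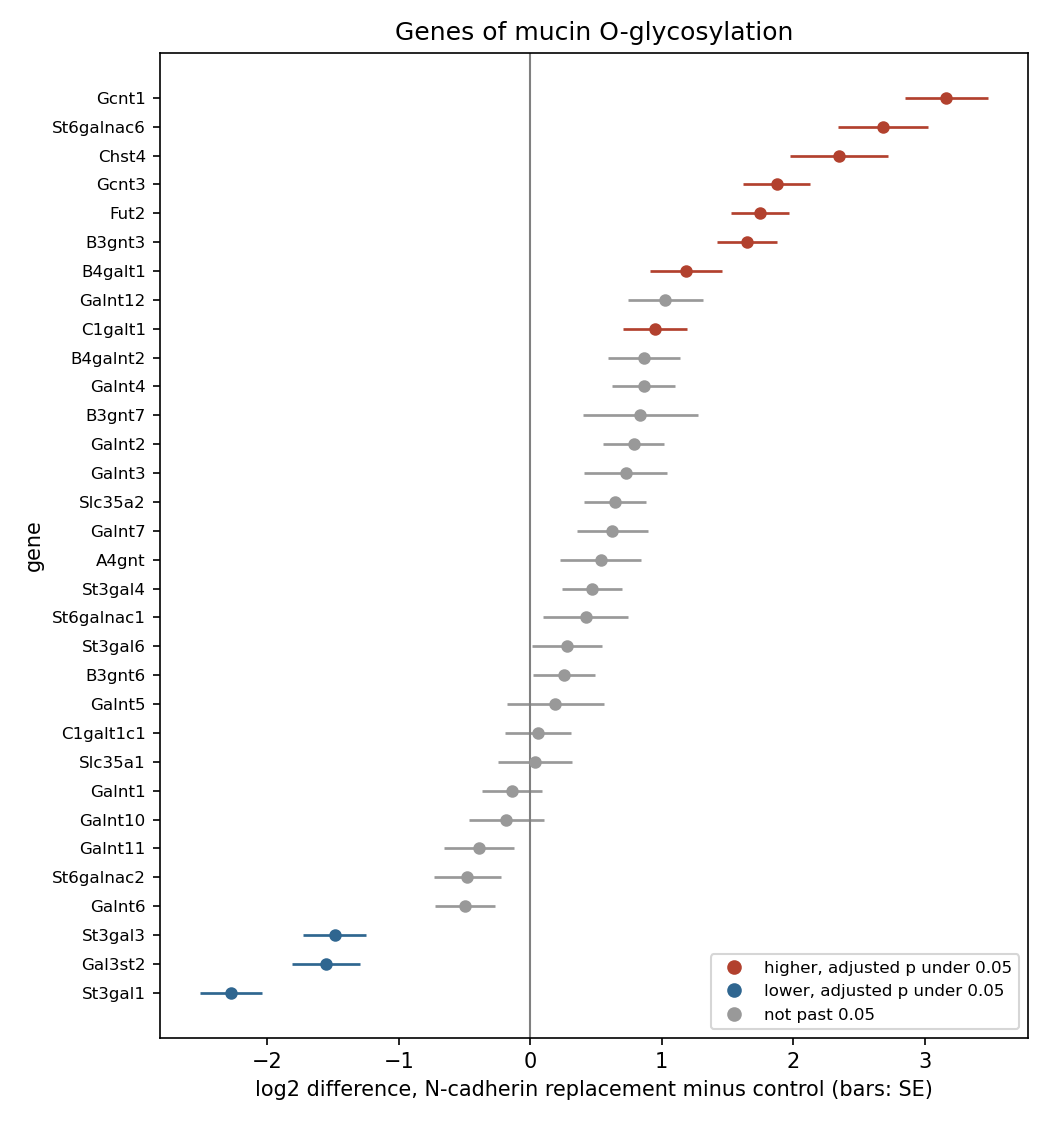
Log2 difference (N-cadherin replacement minus control) and SE of the 32 tested genes of mucin O-glycosylation. The 8 genes called higher (red) run from C1galt1 at 0.95 to Gcnt1 at 3.16, and the 3 called lower (blue) are St3gal1, Gal3st2 and St3gal3. All control arrays of Gcnt1 and Fut2 were under the floor, so their calls do not test a rise.

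Genes that fold, store and release mucins mostly did not pass. In the list of mucin assembly, secretion and the mucus layer 2 of 23 tested genes rose and none fell (8.7%, against 9.12% of all genes, a share near that background), with a median of 0.20. Kcnn4, a potassium channel that drives epithelial fluid secretion, read 369.9, 651.1 and 589.1 in the replacement arrays, against 122.2, 131.6 and 122.5 in the control arrays, 4.19-fold higher (2.07, SE 0.287, adjusted p = 0.00253). Pdia5, a protein disulfide isomerase, rose by 1.67 (SE 0.405, adjusted p = 0.0338), a call that 12 of 19 alternatives ended. Cftr, the chloride and bicarbonate channel, had 0.95 (adjusted p = 0.0586). Of the 23 differences of this list 14 were above 0. Vamp8, chosen after its values were seen, lay on the other side and did not pass (-0.93, limma adjusted p = 0.0972). It read 780.3, 385.3 and 567.1 in the replacement arrays, against 1116, 1049 and 966.2 in the control arrays. Agr2, chosen after its values were seen, is the disulfide isomerase needed for Muc2 synthesis; it read 2115, 1347 and 1571 in the replacement arrays, against 1418, 904.4 and 902.5 in the control arrays, and did not pass (0.54, adjusted p = 0.301).

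Among 9 transcription factors listed for the goblet lineage Foxa1 rose by 1.27 (SE 0.295, adjusted p = 0.0280), a call that 7 of 19 alternatives ended. The share called was 11.1%, against 9.12% of all genes, and the other 8 did not pass. The list median was 0.33, and the list does not separate factors that promote the lineage from those that oppose it. Spdef, which drives goblet cell maturation, had 0.56 (adjusted p = 0.233), Klf4 -0.84 (adjusted p = 0.170) and the Notch target Hes1 0.51 (adjusted p = 0.287). In the list of partners and sheddases of membrane mucins 1 of 16 genes rose and 1 fell (12.5%, against 9.12% of all genes), with a median of 0.14. Lgals3 (galectin-3, which binds mucin sugar chains) read 3613, 2435 and 2690 in the replacement arrays, against 1419, 1535 and 1526 in the control arrays, a rise of 0.96 (SE 0.255, adjusted p = 0.0464) that 11 of 19 alternatives ended. Pdzk1, a scaffold of apical membrane proteins, read 833.2, 610.5 and 552.5 in the replacement arrays, against 1431, 1617 and 1669 in the control arrays (-1.23, SE 0.260, adjusted p = 0.0193), a call that 7 of 19 alternatives ended. The kinase Src read at most 166.7 in the replacement arrays, against at least 234.0 in the control arrays, and missed the threshold (adjusted p = 0.0529), and the protease Mmp14 had 0.71 (adjusted p = 0.127).

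Of 19 other mucin and mucin-like genes 16 had a probe set and 8 were tested. Muc5ac, Muc5b, Mucl1, Mucl2 and Smgc (listed as Muc19, a synonym of it in the gene table) stayed under the floor on every array. Muc15 reached at most 18.0 and Muc16 at most 22.9. Podxl (podocalyxin, a sialomucin) read 78.2, 67.3 and 84.8 in the replacement arrays, against 158.9, 269.9 and 250.1 in the control arrays, and was the gene of this list that changed (-1.41, SE 0.276, adjusted p = 0.0135), in 1 of 8 tested (12.5%, against 9.12% of all genes). Its other probe set gave -0.42, and 7 of 19 alternatives ended the call, among them the mean of its probe sets (-0.92). Cd34 (-0.64), Emcn (-0.57) and Madcam1 (-0.38), known from endothelium, did not pass, and without control 1 their differences were -0.03, 0.26 and 0.15.

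Intestinal epithelial markers had a summed intensity over 10 genes of 28705 to 36088 in the replacement and 26817 to 28798 in the control arrays. Not all were bright, and Cdx1 read 119.2 to 292.9 over the 6 arrays. Of these 10 genes 1 rose, Krt20, where 4.46% of all genes rose. It read 3798, 3167 and 3231 in the replacement arrays, against 1882, 925.1 and 945.5 in the control arrays (log2 difference 1.35, limma adjusted p = 0.0274). The fibroblast list summed to 380.9 to 488.1 in the replacement arrays and to 1117, 197.6 and 206.3 in the control arrays, and the exocrine pancreas list to 488.9, 4124 and 3028 in the replacement arrays and 2071, 720.9 and 779.4 in the control arrays. Neither list held a call (0 of 6 and 0 of 7), and their part in the mucin values was not tested. The arrays with the higher pancreas sums were those that sex-linked transcripts put among females, so sex and this signal cannot be told apart here. In the leukocyte list 1 of 5 tested genes fell, Csf1r, where 4.66% of all genes fell, with Cd3e, Cd3g and Cd79b under the floor. Csf1r read 2427 to 2504 in the control arrays. Ptprc, also of this list and chosen after its values were seen, read at most 56.4 on any array. The other 4 tested genes did not pass, with log2 differences of -0.61 to -0.07. Whether the share of leukocytes differed was not tested. The calls of Krt20 and Csf1r were not followed under the alternative settings. The endothelium and smooth muscle lists held no call (0 of 5 and 0 of 2). Of 11 markers of gastric mucous cells and Brunner glands 5 were tested and none passed, with a summed intensity of 448.7 to 553.3 in the replacement and 352.7 to 423.4 in the control arrays.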

How the data were processed

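Affymetrix arrays measured RNA of detached small intestinal epithelium in 3 N-cadherin replacement and 3 control samples. The deposited values are linear intensities, scaled by the authors before deposit to a mean of 100 without the lowest and highest 2%, as the values show; GCRMA and limma are named per the submitters' processing notes, and how probe sets were summarised is not given in the sources consulted. Arrays have no read depth, and their number limits the precision. After 64 array controls were left out, 26630 probe sets with at least 3 of 6 arrays at 16 or more were kept, floored at 16 and converted to log2, which compresses differences of dim genes. The brightest probe set stood for its gene. limma 3.58.1 in R 4.3.3 (lmFit, eBayes) compared 3 replacement with 2 control replicates across 12994 genes, with Benjamini-Hochberg adjustment at 0.05. On simulated data with 12994 genes the steps recovered 14% of genes raised by 1 on the log2 scale and 64% of those raised by 2, and called 6 unchanged genes. Alternatives changed the filter, floor, scaling, probe set rule, replicates and eBayes options. Named genes were the members, Cdh1 and Cdh2, up to 4 genes with the smallest p of each mucin list and the 3 nearest profiles of a called member. Exceptions are marked, and genes of the cell type lists were named outside this rule. Members and lists were chosen with earlier results of these data known. Figures were drawn with matplotlib 3.10.9.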

Additional observations from a re-analysis of the deposited data

Results flagged for a closer look

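The Muc2 difference ran in opposite directions in the arrays that sex-linked genes put among females (-0.71, 2 replacement samples against 1 control sample) and among males (0.73, 1 against 1). Every replacement array lay under the control array among females and above both control arrays among males. The difference between the sexes was not tested, and the female arrays were also those with the higher summed intensity of the exocrine pancreas list.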

How the results depend on the processing

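Muc4, Muc3 and Muc13 kept a difference above 0 in all 19 alternatives run, at 1.20 to 1.78, 0.51 to 1.14 and 0.03 to 0.19. Muc2 was below 0 in 17 of 19 (-0.52 to 0.08) and Muc20 in 13 of 18 (-0.24 to 0.26; a filter at 64 removed it), and none of these passed. The count of called mucin genes, 1, went to 0 with no filter, with a floor of 32 and without control 2 and control 3, and ran from 0 to 1 with single arrays left out; that of called mucin probe sets, 1, went to 0 in these and with a floor of 8, and also ran from 0 to 1. All genes called, 1185, became 2352 with all 6 arrays as separate replicates, 162 with no filter, 291 with a floor of 32, 620 with every probe set tested, 4181 with array weights and 4 without control 2 and control 3, and 11 to 1660 with single arrays left out. O-glycosylation genes that rose, 8, became 13 with all 6 arrays, 2 with no filter, 2 with a floor of 32, 16 with array weights, 0 without control 2 and control 3 and 0 to 9 with single arrays left out; those that fell, 3, became 1 with no filter, 5 with array weights, 0 without control 2 and control 3 and 0 to 3. With the replicate number as a block (replicate block, all 6 arrays) 2102 genes were called and Muc4 kept its call. Whether same-numbered arrays share more than a label is not known here. They deviated from their group means with correlations of -0.0165, -0.00082 and -0.0549, against -0.0224 to 0.0454 for arrays with different numbers. Such values cannot exclude a pairing. The 19 called genes among Muc4, Cdh1 and the named genes of the mucin lists lost their call without control 1, and also without control 2 and control 3, where the single remaining control value takes its spread from the replacement samples and control replication is absent by construction. The cause of the other changes was not tested.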
